A study of Homo sapiens with 10 samples.

Results

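The 41 genes described here code for proteins that remove, bypass or signal the DNA damage left by platinum drugs. They were chosen by symbol for their repair pathway. Homologous recombination gave 12 genes, the Fanconi anaemia pathway 9, nucleotide excision repair 7, end joining 3, translesion synthesis 2, single-strand break repair 2, mismatch repair 2 and the damage checkpoint 4 kinases. Each symbol belonged to 1 of the 58222 genes in the expression table. All 41 had at least 1 TPM (an abundance corrected for transcript length and given as a share of the library) in at least 2 libraries, the level required for testing, which 15167 genes reached.

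The genes were measured by RNA sequencing in 10 libraries of the established human ovarian adenocarcinoma line OVCAR-3, with 2 biological replicates in each of 5 groups. Control cells grew in RPMI 1640 medium with fetal bovine serum. The Day1 cells spent 24 hours in a silica gel and the Day3 cells 3 days. The Extracted cells had lived through 3 days in the gel and were cultured for a further 2 weeks, while the Treated cells, for which no gel is described, outlived 24 hours in 0.5 uM cisplatin and had 2 weeks to recover. Both recovered groups are therefore survivors of their treatment, no group was sampled while the drug was present, and all 5 groups come from 1 line. Platinum is the standard drug for ovarian carcinoma.

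Cisplatin joins neighbouring purines of a DNA strand and, less often, the opposite strands. Links within a strand are cut out by nucleotide excision repair or copied past by translesion polymerases. Links between strands are recognised by the Fanconi core complex, which ubiquitylates the FANCD2-FANCI pair, are then unhooked by nucleases such as ERCC4-ERCC1, and leave a break that homologous recombination repairs with the sister chromatid as template. ATR and ATM signal the damage to CHEK1 and CHEK2, which halt the cell cycle. Many of the recombination and Fanconi genes are transcribed mainly in cycling cells.

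The libraries held 13896 to 14173 genes at 1 TPM or more, and their depth is unknown because TPM carry no counts. Messenger RNA of the mitochondrial genome took 16.7% and 15.8% of Control TPM and 2.29% to 11.1% elsewhere. Small-RNA genes took 14.7% in Treated replicate 2, 3.21% in Extracted replicate 1 and 0.196% to 1.24% in the other 8 libraries. Since TPM are shares, these fractions set the scale of every other gene, and the results below are also given with other scales. The label of an ovarian epithelial line was checked on its markers: all 10 listed genes (such as PAX8, WT1, MUC16 and keratins) had at least 1 TPM in every library, with a summed level of 4298 to 6421 TPM. Of 8 fibroblast markers 1 to 2 reached 1 TPM, summing to 7.27 to 15.4 TPM, of 8 immune markers 1 to 2, summing to 2.34 to 9.05 TPM, and of 6 endothelial markers 0 to 1, summing to 1.35 to 2.79 TPM. The immune markers that reached 1 TPM were CD68, with 1.12 to 7.46 TPM over the 10 libraries, and CD14, with 1.31 and 1.21 TPM in the Treated pair. The T cell gene CD3D and the NK cell gene NKG7 were listed at 0 in all 10 libraries. Single epithelial markers differed between groups. WT1 had 46.3 and 52.8 TPM in Control and 15.3 and 13.4 in the Treated pair, while MUC16 had 37.6 and 56.5 in Control and 104 and 112 in the Treated pair.

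XRCC5 and XRCC6, the Ku80 and Ku70 proteins that cap broken ends for end joining, were highest, with 281 to 423 TPM and 171 to 251 TPM over the 10 libraries. PARP1, the poly(ADP-ribose) polymerase that senses strand breaks, followed with 87.2 to 161 TPM. In every library XRCC5 lay above XRCC6 and XRCC6 above PARP1. The lowest were RAD51D, of the paralogue complexes of recombination, with 2.11 to 3.26 TPM, ERCC4, the nuclease subunit that unhooks crosslinks, with 1.90 to 5.45 TPM, and FANCM, the translocase that meets stalled forks, with 2.26 to 4.90 TPM. By mean over the 10 libraries the 41 genes ran from the 21.4th percentile of tested genes (RAD51D) to the 97.6th (XRCC5).

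Against Control, every repair gene that passed the test had fallen. A gene was called when the adjusted p of limma was under 0.05, and a fold change is the log2(TPM + 1) of the first group named less that of Control or the other group. In Treated cells 13 of the 41 genes fell and 0 rose, where 18.2% of all tested genes fell and 6.28% rose. After 1 day in the gel 5 fell and 0 rose (all genes: 6.28% lower, 14.4% higher), and after 3 days 4 fell and 0 rose (all genes: 4.64% lower, 5.18% higher, 9.82% in all). In Extracted cells 0 were called in either direction by limma, where 1.13% of all tested genes fell and 0.857% rose (1.99% in all). There 3 of the 41 had an unadjusted limma p under 0.05, beside 2728 of all 15167 tested genes. These 4 comparisons share the 2 Control libraries and are not independent of each other.

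**Figure D1:**
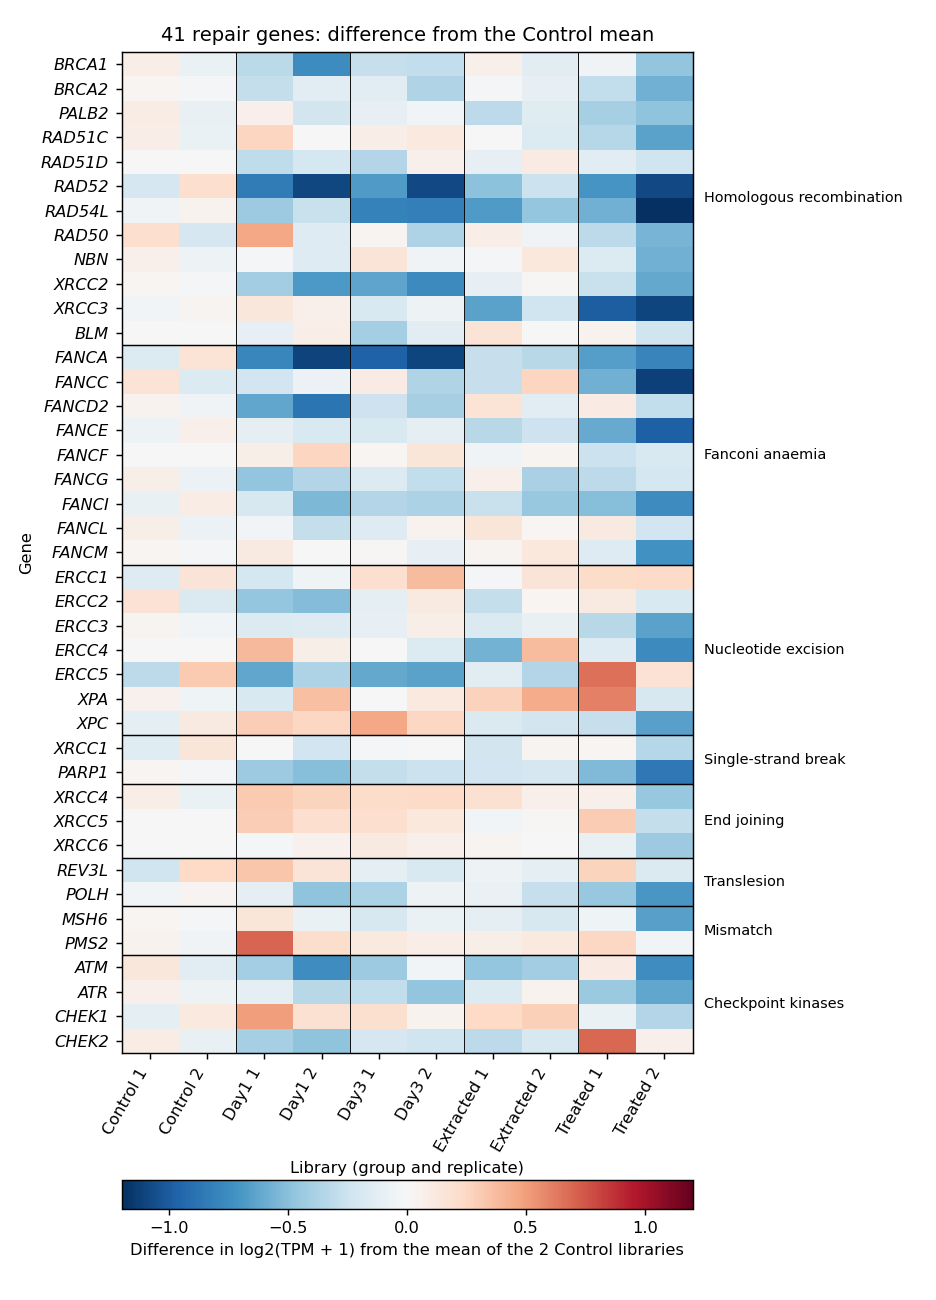
Each row is a repair gene, grouped by pathway, and each column a library. Colour gives the difference in log2(TPM + 1) from the mean of the 2 Control libraries, with blue lower and red higher. RAD52 and FANCA are blue in both libraries of Day1, Day3 and Treated, XRCC3 is dark blue in both Treated libraries, and Treated replicate 2 lies below Treated replicate 1 in 38 of the 41 rows. The order of these replicates was not counted over all tested genes.

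The median fold change of the 41 genes was -0.36 in Treated cells beside -0.15 over all tested genes, and 34 of the 41 values were below 0. It was -0.15 on Day1 (all genes 0.12), -0.14 on Day3 (all genes 0.064) and -0.084 in Extracted cells (all genes -0.017). In Treated cells both libraries lay below both Control libraries for 25 of the 41 genes and above them for 1, while 44.1% and 18.3% of all tested genes did so. On Day1 the same held for 19 genes below and 8 above (all genes 20.7% and 42.1%). On Day3 the same held for 18 genes below and 7 above (all genes 24.9% and 38.9%). In Extracted cells the same held for 15 genes below and 4 above (all genes 30.3% and 27.3%). Bulk RNA cannot tell a fall in every cell from a smaller share of cells that carry the transcript.

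**Figure D2:**
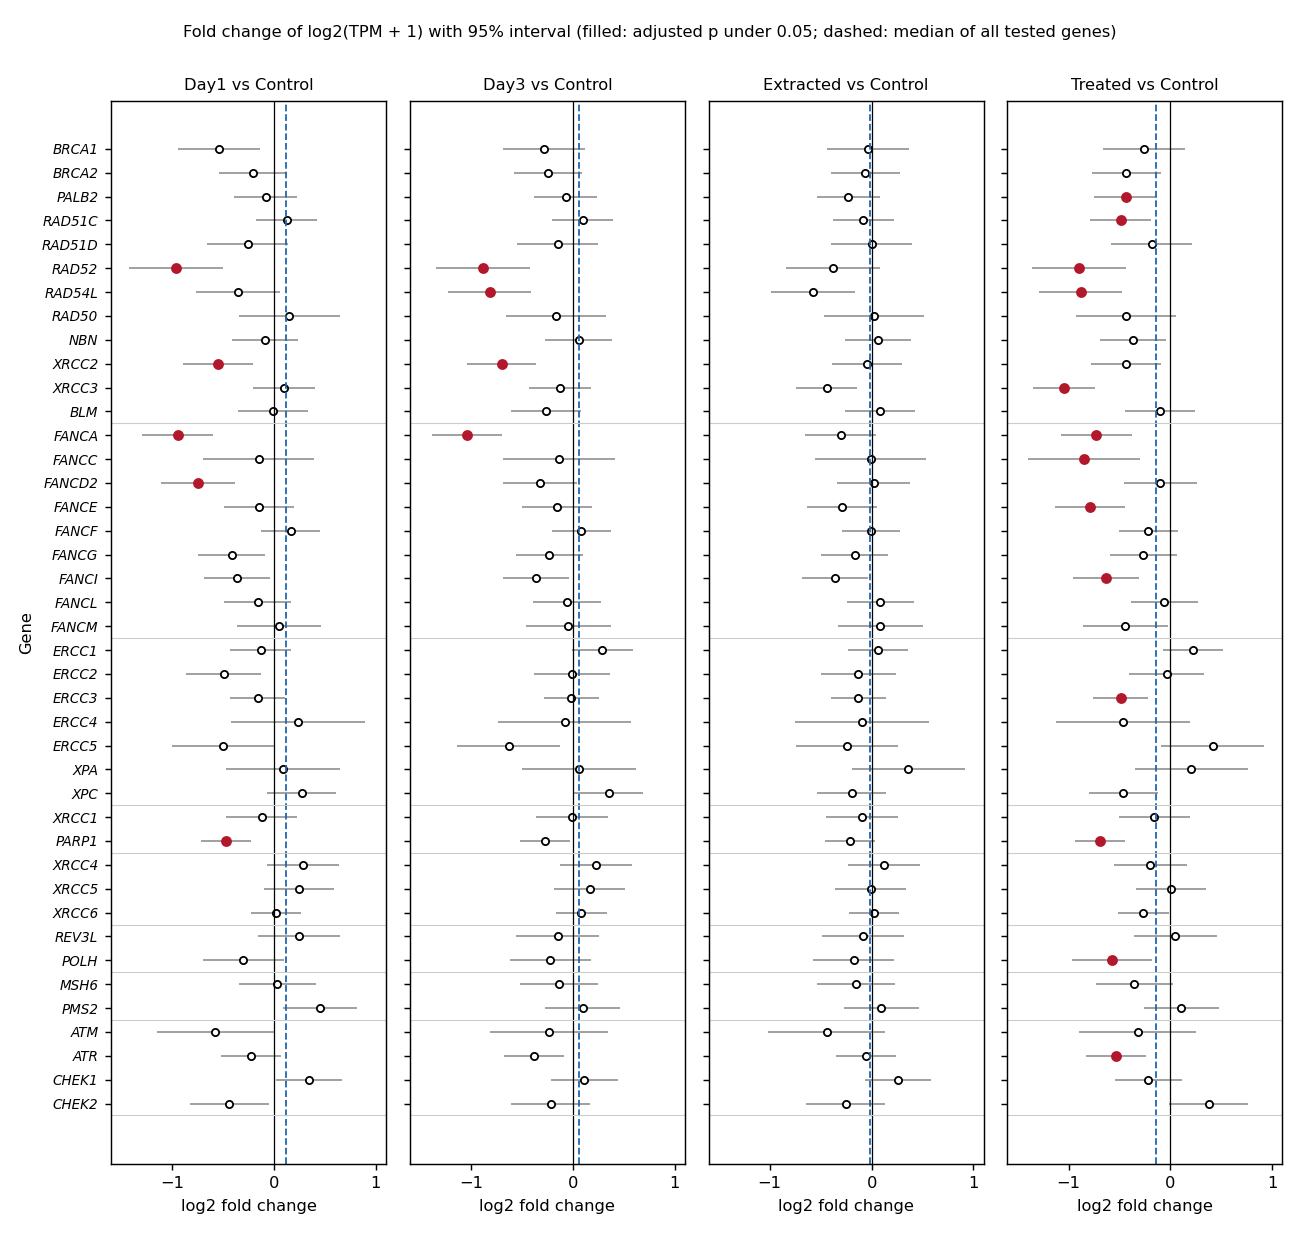
Fold change of log2(TPM + 1) for the 41 genes in 4 comparisons with Control, with 95% intervals from limma. Filled points passed adjusted p under 0.05, and the dashed line is the median of all tested genes. The 13 filled points of the Treated panel are all falls.

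By pathway, the calls were spread as follows, beside 18.2% of all tested genes lower in Treated cells. In Treated cells 5 of the 12 recombination genes, 4 of the 9 Fanconi genes, 1 of 7 excision genes, 1 of 2 single-strand break genes, 1 of 2 translesion genes and 1 of 4 checkpoint kinases fell, and 0 of 3 end-joining and 0 of 2 mismatch genes. On Day1 the 5 calls were 2 recombination genes, 2 Fanconi genes and PARP1, and on Day3 they were 3 recombination genes and 1 Fanconi gene. No test compared 1 pathway with another.

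The upstream sequences of 3 genes are shown because these genes fell together in Treated cells and differed in the gel, where FANCA was lower at both times, RAD54L at 3 days alone passed the test, and XRCC3 at neither. The sequences are from RefSeq on GRCh38.p14, 5′ to 3′ on the strand of the gene, and end where GENCODE starts the gene. Capitals mark 2 kinds of word found by a search of both strands, whose matches may overlap: E2F-type words (TTTCCCGC, TTTCGCGC, TTTGCCGC or TTTGGCGC), of the kind bound by the factors that drive genes of S phase, and CCAAT, the word bound by NF-Y.
FANCA, chr16:89816658-89816897, minus strand: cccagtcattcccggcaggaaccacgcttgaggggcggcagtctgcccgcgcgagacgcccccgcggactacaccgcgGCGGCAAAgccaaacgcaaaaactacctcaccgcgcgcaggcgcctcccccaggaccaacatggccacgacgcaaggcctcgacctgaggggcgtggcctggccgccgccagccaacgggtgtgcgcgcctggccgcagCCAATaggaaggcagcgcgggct
RAD54L, chr1:46247438-46247687, plus strand: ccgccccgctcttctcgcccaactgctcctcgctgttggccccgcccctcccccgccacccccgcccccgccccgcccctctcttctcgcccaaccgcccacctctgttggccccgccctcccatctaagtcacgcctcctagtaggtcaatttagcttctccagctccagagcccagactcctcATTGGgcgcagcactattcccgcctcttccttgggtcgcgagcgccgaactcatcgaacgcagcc
XRCC3, chr14:103715505-103715701, minus strand: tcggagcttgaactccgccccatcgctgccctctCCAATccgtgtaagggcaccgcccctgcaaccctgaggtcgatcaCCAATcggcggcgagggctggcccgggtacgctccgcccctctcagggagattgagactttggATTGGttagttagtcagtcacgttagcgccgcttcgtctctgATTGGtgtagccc

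FANCA held both kinds of word, RAD54L 1 CCAAT and no E2F-type word, and XRCC3 several CCAAT and no E2F-type word. Over the 250 bases upstream of each start, an E2F-type word stood in 5 of 38 repair genes with a RefSeq window and in 6 of 54 of their windows (11.1%), beside 2.79% of all 35116 windows. CCAAT stood in 17 of 38 genes and 22 of 54 windows (40.7%), beside 32.0% of all windows. A match is a description of the letters and no evidence of binding. XRCC5, FANCI and NBN were not matched.

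Homologous recombination held the gene with the largest fall in Treated cells. XRCC3 (chr14:103697609-103715504, GRCh38), a member of the paralogue complexes that assist strand exchange, had 40.0 and 42.0 TPM in Control, 45.2 and 42.9 at Day1, 35.9 and 39.3 at Day3, 25.9 and 34.5 in the Extracted pair and 20.2 and 18.5 in the Treated pair. Both Treated libraries lay below the other 8, the 2 Extracted libraries lay between them and Control, and Day1 and Day3 lay nearer to Control. The Treated mean was 19.4 ± 1.205 TPM (SD, n = 2), 47.2% of the Control mean of 41.002 ± 1.41, with a fold change of -1.05 (adjusted p = 0.000869). The call held without any of the 4 libraries compared (adjusted p from 0.00244 to 0.0124). XRCC3 overlaps exons of KLC1 on the other strand, and whether reads were counted by strand is not stated, so the reads of both cannot be told apart there.

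RAD54L and RAD52 were low in several groups. RAD54L (chr1:46247688-46278473), the ATPase that helps a broken strand invade its template, had 21.0 and 22.3 TPM in Control, 15.7 and 17.8 at Day1, 11.9 and 11.8 at Day3, 13.1 and 15.3 in the Extracted pair and 14.2 and 8.90 in the Treated pair. All 8 libraries outside Control lay below both Control libraries, and the lowest value was Treated replicate 2. The fold change was -0.88 in Treated (adjusted p = 0.00819) and -0.82 on Day3 (adjusted p = 0.0245), while -0.35 on Day1 and -0.58 in Extracted cells did not pass (adjusted p = 0.198 and 0.143). The Treated call was lost without Control replicate 2 (adjusted p = 0.0613), and the Day3 call without any of its 4 libraries (adjusted p from 0.116 to 0.136). RAD54L overlaps exons of LRRC41 on the opposite strand.

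RAD52 (chr12:912077-990053), which anneals single strands, had 10.9 and 14.7 TPM in Control, 6.63 and 5.40 at Day1, 7.52 and 5.41 at Day3, 8.66 and 10.4 in the Extracted pair and 7.34 and 5.42 in the Treated pair. Every library outside Control was below both Control libraries, and replicate 2 was the higher of the Control pair. The fold change was -0.96 on Day1 (adjusted p = 0.0115), -0.88 on Day3 (adjusted p = 0.0281) and -0.90 in Treated cells (adjusted p = 0.0129), and -0.38 in Extracted cells (adjusted p = 0.382). Without Control replicate 2 none of the 3 calls stood (-0.76 on Day1, -0.68 on Day3 and -0.70 in Treated cells). The Day3 call was lost without any 1 of its 4 libraries, and the Treated call also without Treated replicate 2 (-0.71). Exons of RAD52 overlap those of AC004803.1 on the same strand.

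XRCC2 (chr7:152644779-152676165), another member of the paralogue complexes, fell in the gel. It had 12.6 and 12.2 TPM in Control, 9.06 and 7.32 at Day1, 7.62 and 6.89 at Day3, 11.5 and 12.5 in the Extracted pair and 10.2 and 7.76 in the Treated pair. The Day1, Day3 and Treated libraries all lay below Control, and the Extracted libraries overlapped it. The fold change was -0.55 on Day1 (adjusted p = 0.0311) and -0.70 on Day3 (adjusted p = 0.0227), and -0.44 in Treated cells did not pass (adjusted p = 0.0620). Neither gel call held without Control replicate 1 or 2 (-0.53 and -0.57 on Day1, -0.68 and -0.72 on Day3). The Day1 call was also lost without Day1 replicate 2 (-0.41), and the Day3 call without Day3 replicate 1 or 2 (-0.76 and -0.63).

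RAD51C and PALB2 fell in Treated cells. RAD51C, which is shared by both paralogue complexes, was the most abundant recombination gene, with 63.9 and 57.0 TPM in Control, 72.4 and 60.2 at Day1, 63.7 and 65.5 at Day3, 60.2 and 53.8 in the Extracted pair and 47.5 and 38.3 in the Treated pair. PALB2, which bridges BRCA1 and BRCA2, had 11.2 and 9.77 TPM in Control, 10.9 and 8.85 at Day1, 9.66 and 10.1 at Day3, 8.21 and 9.37 in the Extracted pair and 7.67 and 7.203 in the Treated pair. For both genes the 2 Treated libraries were the lowest of the 10. The fold change was -0.49 for RAD51C (adjusted p = 0.0260) and -0.44 for PALB2 (adjusted p = 0.0443), and neither passed on Day1, on Day3 or in Extracted cells. Both calls were lost without Treated replicate 2 or either Control library, and PALB2 without Treated replicate 1 as well (adjusted p from 0.0723 to 0.151 for RAD51C and 0.0659 to 0.218 for PALB2).

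The other 6 recombination genes were called in none of the 6 comparisons. They are BRCA1 (9.33 to 17.5 TPM), the ubiquitin ligase that starts end resection and recruits PALB2, BRCA2 (4.33 to 7.06 TPM), which PALB2 brings to breaks, RAD51D, RAD50 (15.1 to 31.7 TPM) and NBN (20.2 to 34.1 TPM), parts of the MRN break sensor, and BLM (5.72 to 8.96 TPM), the helicase that dissolves crossed strands. BRCA1 and BRCA2 are singled out here after their values were seen. BRCA1 had 17.5 and 15.5 TPM in Control, 12.9 and 9.33 at Day1, 13.4 and 13.2 at Day3, 17.3 and 14.9 in the Extracted pair and 15.9 and 11.6 in the Treated pair, and both Day1 libraries lay below both Control libraries. Its fold change of -0.54 on Day1 did not pass (adjusted p = 0.0581), with a 95% interval of -0.94 to -0.14. It passed when TPM were rescaled by the median of ratios (-0.66, adjusted p = 0.0139). BRCA2 had 7.06 and 6.80 TPM in Control, 5.52 and 6.25 at Day1, 6.27 and 5.16 at Day3, 6.78 and 6.43 in the Extracted pair and 5.48 and 4.33 in the Treated pair. Both Treated libraries were below Control, with a fold change of -0.43 that did not pass (adjusted p = 0.0621, interval -0.77 to -0.10).

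**Figure D3:**
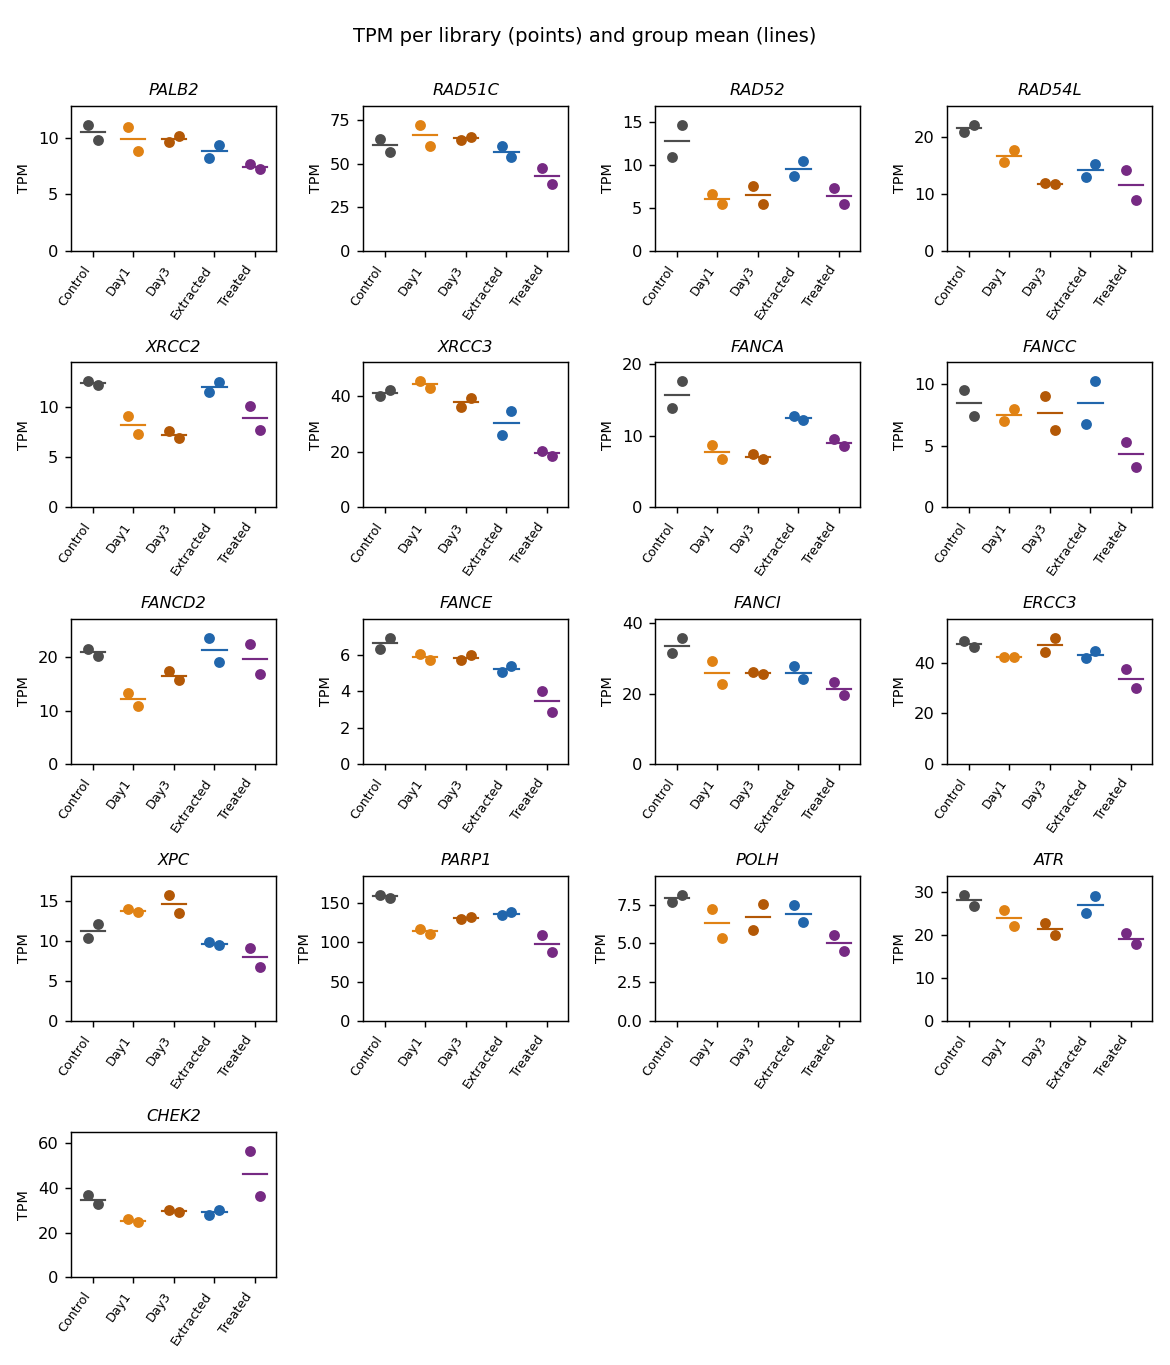
TPM of the 17 repair genes called in at least 1 comparison, with a point for each library, a line at each group mean and axes from 0. XRCC3 is lowest in Treated cells at 18.5 and 20.2 TPM, FANCA is lowest on Day1 and Day3, and the 2 Treated points of CHEK2 lie apart at 56.5 and 36.4 TPM.

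Among the Fanconi genes FANCA fell on Day1, on Day3 and in Treated cells. FANCA (chr16:89737549-89816657), the scaffold subunit of the core complex, had 13.9 and 17.6 TPM in Control, 8.65 and 6.72 at Day1, 7.49 and 6.74 at Day3, 12.7 and 12.2 in the Extracted pair and 9.52 and 8.60 in the Treated pair. All 4 gel libraries and both Treated libraries lay below every Control and Extracted library. Its mean was 15.7 ± 2.65 TPM in Control, 7.69 ± 1.37 on Day1 and 7.11 ± 0.531 on Day3 (SD, n = 2), or 48.8% and 45.2% of Control. Its fold change was -0.95 on Day1 (adjusted p = 0.00358), -1.04 on Day3 (adjusted p = 0.00507) and -0.73 in Treated cells (adjusted p = 0.00919). In Extracted cells it was -0.30 (adjusted p = 0.348). Both gel calls held without any of the 4 libraries compared (adjusted p from 0.00827 to 0.0395 on Day1 and 0.0169 to 0.04998 on Day3), and the Treated call did not hold without Control replicate 2 (adjusted p = 0.0858). Exons of FANCA overlap those of ZNF276 on the opposite strand.

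FANCD2 fell on Day1. FANCD2, 1 of the pair of proteins that the core complex ubiquitylates, had 21.5 and 20.2 TPM in Control, 13.2 and 10.9 at Day1, 17.4 and 15.6 at Day3, 23.6 and 19.0 in the Extracted pair and 22.4 and 16.9 in the Treated pair. Both Day1 libraries were the lowest of the 10, Day3 lay between them and Control, and the Extracted and Treated pairs each fell on both sides of Control. It changed by -0.75 on Day1 (adjusted p = 0.0121), -0.32 on Day3 (adjusted p = 0.240) and -0.10 in Treated cells (adjusted p = 0.698). The Day1 call was lost without either Control library or without Day1 replicate 2 (adjusted p from 0.0522 to 0.0769).

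FANCI, its partner, had 31.3 and 35.8 TPM in Control, 29.1 and 22.7 at Day1, 26.0 and 25.6 at Day3, 27.7 and 24.2 in the Extracted pair and 23.2 and 19.5 in the Treated pair. Every library outside Control was below both Control libraries, and the test was passed in Treated cells (-0.63, adjusted p = 0.0129) and not on Day1 (-0.37, adjusted p = 0.1003). The Treated call was lost without Treated replicate 2 or Control replicate 2 (adjusted p from 0.0655 to 0.1002). With TPM rescaled by the median of ratios or to nuclear protein-coding genes, both FANCD2 and FANCI were called lower on Day1 (FANCI -0.49 and -0.57, adjusted p = 0.0167 and 0.00972), and on the latter scale both were called lower on Day3 (FANCD2 -0.47 and FANCI -0.51, adjusted p = 0.0499 and 0.0239). Whether their changes differ from each other was not tested.

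FANCC and FANCE, core subunits that bind each other, fell in Treated cells. FANCC had 9.51 and 7.35 TPM in Control, 7.001 and 7.92 at Day1, 9.01 and 6.28 at Day3, 6.76 and 10.2 in the Extracted pair and 5.29 and 3.30 in the Treated pair. FANCE had 6.33 and 6.94 TPM in Control, 6.03 and 5.74 at Day1, 5.70 and 6.02 at Day3, 5.08 and 5.42 in the Extracted pair and 4.03 and 2.87 in the Treated pair. The 2 Treated libraries were the lowest of the 10 for both genes, and replicate 2 was the lower of the pair. Fold changes were -0.85 for FANCC (adjusted p = 0.0317) and -0.79 for FANCE (adjusted p = 0.00604). Without Treated replicate 2 FANCC, also lost without either Control library, was -0.57 and did not pass (adjusted p = 0.181), while FANCE was lost without Control replicate 2 alone (adjusted p = 0.0540).

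The other 4 Fanconi genes were called in none of the 6 comparisons. FANCG, a core subunit beside FANCA and the most abundant of the 9 genes, had 36.5 and 33.2 TPM in Control, 24.9 and 27.0 at Day1, 30.9 and 28.1 at Day3, 36.5 and 26.3 in the Extracted pair and 27.7 and 29.9 in the Treated pair, and its largest change was -0.41 on Day1 (adjusted p = 0.0742). FANCL, the ubiquitin ligase of the complex, stayed at 14.3 to 19.6 TPM, FANCF, an adaptor, at 5.54 to 8.33 TPM, and FANCM at 2.26 to 4.90 TPM. The 95% interval of FANCL in Treated cells was -0.39 to 0.27 around -0.061.

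Of the 7 excision genes ERCC3 fell in Treated cells and XPC from Day3 to Extracted cells. ERCC3, the XPB helicase of TFIIH that opens DNA around the lesion, was the most abundant of the 7 genes, with 48.5 and 46.1 TPM in Control, 42.2 and 42.3 at Day1, 44.0 and 49.7 at Day3, 41.9 and 44.4 in the Extracted pair and 37.4 and 29.9 in the Treated pair. Both Treated libraries lay below the other 8, with a fold change of -0.49 (adjusted p = 0.0178), lost without Treated replicate 2 or either Control library (adjusted p from 0.0727 to 0.101). ERCC1, the partner of ERCC4 in the unhooking nuclease and the excision gene most often linked to platinum response, had 27.3 and 34.0 TPM in Control, 26.1 and 29.5 at Day1, 35.2 and 40.0 at Day3, 29.9 and 34.2 in the Extracted pair and 35.7 and 35.9 in the Treated pair. Its fold change was 0.22 in Treated cells (adjusted p = 0.246, interval -0.072 to 0.52) and 0.29 on Day3 (adjusted p = 0.196).

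XPC, which finds the distorted helix, had 10.3 and 12.1 TPM in Control, 14.0 and 13.5 at Day1, 15.8 and 13.5 at Day3, 9.78 and 9.497 in the Extracted pair and 9.09 and 6.76 in the Treated pair. The 4 gel libraries were the highest of the 10 and the 2 Treated libraries the lowest. From Day3 to Extracted cells XPC changed by -0.55 (adjusted p = 0.0341), while 0.35 on Day3 and -0.46 in Treated cells, each against Control, did not pass (adjusted p = 0.176 and 0.0504). The other 4 were not called: ERCC2, the XPD helicase (11.8 to 19.6 TPM), ERCC4 (1.90 to 5.45 TPM), ERCC5, the nuclease on the other side of the lesion (4.66 to 12.98 TPM), and XPA, the scaffold of the complex (6.52 to 12.1 TPM). ERCC5 shares exons with the read-through gene BIVM-ERCC5, so its TPM are uncertain.

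PARP1 fell in Treated cells and on Day1. PARP1 (chr1:226360691-226408079) had 161 and 157 TPM in Control, 117 and 111 at Day1, 130.4 and 133 at Day3, 135 and 138 in the Extracted pair and 109 and 87.2 in the Treated pair. All 8 libraries outside Control lay below both Control libraries, whose values were close together. The Treated mean was 98.3 ± 15.8 TPM, 61.9% of the Control mean of 159 ± 3.12 (SD, n = 2), with a fold change of -0.70 (adjusted p = 0.00227). The call held without any of the 4 libraries compared (adjusted p from 0.000472 to 0.0233). On Day1 the fold change was -0.48 (adjusted p = 0.0156), a call lost without Control replicate 1, Control replicate 2 or Day1 replicate 2 (adjusted p = 0.0951, 0.0794 and 0.0537). On Day3 and in Extracted cells -0.27 and -0.22 did not pass (adjusted p = 0.157 and 0.344). PARP1 has 2 named pseudogenes. XRCC1, the scaffold that PARP1 recruits to single-strand breaks, had 29.1 and 35.7 TPM in Control, 32.1 and 27.4 at Day1, 32.0 and 32.2 at Day3, 27.6 and 33.0 in the Extracted pair and 32.8 and 25.3 in the Treated pair, and its fold changes lay between -0.16 in Treated and -0.0074 on Day3, with no call.

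The end-joining genes were not called in any comparison. XRCC5 had 343 and 343 TPM in Control, 420.2 and 395 at Day1, 395 and 375 at Day3, 336 and 346 in the Extracted pair and 423 and 281 in the Treated pair. XRCC6 had 231 and 234 TPM in Control, 231 and 241 at Day1, 251 and 243 at Day3, 238 and 234 in the Extracted pair and 218 and 171 in the Treated pair. The gel libraries of XRCC5 all lay above Control, and the Treated pair fell on both sides of Control. The fold change of XRCC5 in Treated cells was 0.0064 (interval -0.34 to 0.35). The 2 Treated libraries gave opposite calls: 0.30 without Treated replicate 2 (adjusted p = 0.0276) and -0.29 without Treated replicate 1 (adjusted p = 0.0222). XRCC4, which binds ligase IV, ranged over 13.6 to 23.8 TPM. XRCC6 has 5 named pseudogenes.

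Of the 2 translesion genes POLH fell in Treated cells. POLH, the polymerase that copies past platinum links, had 7.70 and 8.16 TPM in Control, 7.24 and 5.37 at Day1, 5.85 and 7.57 at Day3, 7.45 and 6.37 in the Extracted pair and 5.52 and 4.49 in the Treated pair, and all 8 libraries outside Control lay below both Control libraries. The fold change passed in Treated cells (-0.58, adjusted p = 0.0400) and not on Day1, on Day3 or in Extracted cells (-0.30, -0.22 and -0.18, adjusted p = 0.251, 0.463 and 0.657). The call was lost without Treated replicate 2 or either Control library (adjusted p from 0.115 to 0.179). REV3L, the catalytic subunit of polymerase zeta, which extends past the lesion, had 14.3 and 20.3 TPM in Control, 21.7 and 19.1 at Day1, 15.7 and 14.9 at Day3, 16.3 and 15.7 in the Extracted pair and 20.7 and 14.99 in the Treated pair, with 0.047 in Treated cells (adjusted p = 0.879, interval -0.36 to 0.45). Its Control libraries differed from each other more than the Treated mean differed from theirs.

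The mismatch genes, whose products recognise platinum links and can turn them into a death signal, showed no call. MSH6, a subunit of the sensor MutSalpha, had 54.8 and 53.02 TPM in Control, 59.7 and 51.1 at Day1, 47.1 and 50.9 at Day3, 49.8 and 47.0 in the Extracted pair and 51.8 and 33.9 in the Treated pair. PMS2, the nuclease subunit of MutLalpha, had 13.2 and 12.3 TPM in Control, 21.3 and 14.9 at Day1, 13.9 and 13.5 at Day3, 13.5 and 13.9 in the Extracted pair and 15.3 and 12.4 in the Treated pair. Both Day1 libraries of PMS2 lay above Control (0.45, adjusted p = 0.0784), and Treated replicate 2 was the lowest library for MSH6 (Treated cells -0.36, adjusted p = 0.155). When Day1 replicate 2 was left out, PMS2 was called higher on Day1. PMS2 has 11 named pseudogenes in GENCODE, so its TPM are uncertain.

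Among the checkpoint kinases ATR fell in Treated cells. ATR, the kinase that answers stalled forks, had 29.5 and 26.9 TPM in Control, 25.8 and 22.2 at Day1, 22.8 and 20.1 at Day3, 25.1 and 29.1 in the Extracted pair and 20.5 and 17.9 in the Treated pair. Both Treated libraries lay below both Control and both Extracted libraries, with a fold change from Control of -0.53 (adjusted p = 0.0172), lost without Treated replicate 2 or either Control library (adjusted p from 0.0629 to 0.106). CHEK2, the kinase activated by ATM, had 36.9 and 32.7 TPM in Control, 26.2 and 24.6 at Day1, 30.2 and 29.3 at Day3, 27.8 and 30.2 in the Extracted pair and 56.5 and 36.4 in the Treated pair. Treated replicate 1 was the highest of the 10 libraries, Treated replicate 2 lay within the Control pair, and the 6 gel and Extracted libraries were all below Control. Its fold change from Control was 0.37 and did not pass (adjusted p = 0.144). It passed with TPM rescaled to nuclear protein-coding genes (0.42, adjusted p = 0.0292) and by the median of ratios (0.53, adjusted p = 0.0180). CHEK2 has 4 named pseudogenes.

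CHEK1, the kinase downstream of ATR, had 26.2 and 30.9 TPM in Control, 40.8 and 32.4 at Day1, 32.6 and 29.3 at Day3, 33.8 and 34.9 in the Extracted pair and 26.9 and 22.1 in the Treated pair. Both Day1 and both Extracted libraries lay above both Control libraries, and the Day3 and Treated pairs each had a library inside the Control range. Exons of CHEK1 overlap those of STT3A on the same strand, so the TPM of CHEK1 are uncertain. No change from Control passed (0.34 on Day1, adjusted p = 0.123; -0.22 in Treated cells, adjusted p = 0.308). ATM, the kinase that answers broken ends, ranged over 5.42 to 10.9 TPM, with an interval of -0.90 to 0.25 around -0.32 in Treated cells.

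The number of falls in Treated cells depended on single libraries. Over genes detected in all libraries, the scale factor by the median of ratios was 0.968 for Treated replicate 1 and 0.838 for Treated replicate 2. Treated replicate 2 was below Treated replicate 1 for 38 of the 41 genes, a count not made over all tested genes. Without it, the library with 14.7% of TPM in small-RNA genes, 5 repair genes fell (RAD54L, XRCC3, FANCA, FANCE and PARP1) and 2 rose (XRCC5 and CHEK2), while 9.83% of all tested genes fell and 7.16% rose. Without Treated replicate 1, 22 fell and 0 rose, against 23.6% and 4.17% of all genes. Without either Control library fewer repair genes and fewer of all tested genes fell than with all libraries. Without Control replicate 2 the share of the 41 that fell was below that of all tested genes. The median fold change of the 41 was then -0.38 (all genes -0.13), and it was -0.31 without Control replicate 1 (all genes -0.16). XRCC3 and PARP1 were called in all 4 of these fits.

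The scale of the libraries moved the counts as well. With TPM rescaled to nuclear protein-coding genes, which takes mitochondrial and small RNA out of the total, 18 repair genes fell in Treated cells, all 13 above among them, and 1 rose (all tested genes: 23.1% lower, 10.0% higher). With the median of ratios, 10 fell, each among the 13, and 1 rose (all genes: 11.7% lower, 12.2% higher). Of the calls over all genes, 25.7% were rises as deposited and 51.1% with the median of ratios.

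In the gel the same rescalings added falls. On Day1 the falls numbered 11 with the median of ratios and 15 with nuclear protein-coding genes, and on Day3 7 and 9, with 0 rises in each and all of the 5 and 4 calls kept. The added Day1 genes under both were BRCA1, FANCG, FANCI, ERCC2, ATR and CHEK2. Over all genes the share of rises among calls on Day1 went from 69.6% to 49.2% and 34.0%, and on Day3 from 52.8% to 42.2% and 24.0%. In all 3 scales the share of all tested genes that fell on Day1 (6.28%, 11.1% and 15.3%) was below the share of the 41 (12.2%, 26.8% and 36.6%). On Day3 the share of all tested genes that fell also grew with these scales (4.64%, 7.52% and 11.03%). It was below the share of the 41 there too (9.76%, 17.07% and 21.95%). On both days the calls depended on single libraries. On Day1 fewer repair genes fell without Control replicate 1, Control replicate 2 or Day1 replicate 2, but not without Day1 replicate 1. The median fold changes of the 41 in the first 3 of these fits were -0.12, -0.17 and -0.12 (all genes 0.11, 0.14 and 0.16). Without Day1 replicate 2, PMS2 was also called higher. On Day3 fewer repair genes fell without any 1 of the 4 libraries compared. Over all tested genes, too, fewer fell in every one of these fits. FANCA was the gene called in each of these fits.

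The step from the gel to recovery was compared directly. Against Day3, Extracted cells had 2 repair genes higher and 1 lower, where 6.3% of all tested genes were higher and 10.8% lower. XRCC2 was higher by 0.65 (adjusted p = 0.0169) and FANCA by 0.74 (adjusted p = 0.0110), with both Extracted libraries above both Day3 libraries for each gene, and XPC was the lower gene. Over the 41 genes the Extracted pair lay below the Day3 pair for 9 and above it for 14 (all genes 41.3% and 27.4%). The 3 calls did not hold without any 1 of the 4 libraries compared (adjusted p from 0.0654 to 0.118 for XRCC2, 0.0523 to 0.0827 for FANCA and 0.0765 to 0.216 for XPC). RAD52 and ATR, at 0.51 and 0.32 (adjusted p = 0.123 and 0.125), passed with the median of ratios and with nuclear protein-coding genes, which gave 4 rises and 1 fall. The share of rises among calls over all genes was 36.7% as deposited and 51.8% and 49.97% with these scales. RAD54L was not called: its Extracted mean was 14.2 ± 1.61 TPM beside 11.8 ± 0.0900 on Day3 and 21.6 ± 0.896 in Control (Extracted against Day3 0.24, adjusted p = 0.397).

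In Extracted cells the 3 repair genes with an unadjusted p under 0.05 were RAD54L (-0.58, adjusted p = 0.143), XRCC3 (-0.44, adjusted p = 0.132) and FANCI (-0.36, adjusted p = 0.233), each with both libraries below Control. With nuclear protein-coding genes, 3 genes fell (RAD54L, XRCC3 and PARP1), against 6.02% of all tested genes, and rises were 23.4% of calls over all genes in place of 43.0%. With limma on these 2 groups alone 1 fell, RAD54L.

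Set directly against each other, the 2 recovered groups differed in 4 repair genes, 1 higher and 3 lower in Treated cells, where 3.24% of all tested genes were higher and 8.87% lower. CHEK2 was higher in Treated cells by 0.63 (adjusted p = 0.0445). XRCC3 was -0.60 (adjusted p = 0.0234), PARP1 -0.48 (adjusted p = 0.0246) and ATR -0.48 (adjusted p = 0.0445), all lower in Treated cells, and in all 4 genes the 2 groups did not overlap. Over the 41 genes the Treated pair lay below the Extracted pair for 22 and above it for 3 (all genes 41.7% and 16.5%). The 3 falls are 7.32% of the 41 genes, near the share over all genes. FANCC (-0.84, adjusted p = 0.0520), FANCE (-0.50, adjusted p = 0.0614), CHEK1 (-0.48, adjusted p = 0.0603) and ERCC5 (0.66, adjusted p = 0.0852) came next and did not pass. The calls depended on single libraries, here and over all tested genes, and none of the 4 held without each library compared. Without Treated replicate 2 the fold changes were 0.94 (CHEK2), -0.54 (XRCC3), -0.32 (PARP1) and -0.38 (ATR). Without Treated replicate 1 they were 0.32, -0.66, -0.64 and -0.57 in the same order. Without Extracted replicate 1 they were 0.57, -0.80, -0.50 and -0.58, and without Extracted replicate 2 0.68, -0.40, -0.46 and -0.37. With the median of ratios 2 were higher (CHEK2 and ERCC5) and 2 lower (XRCC3 and PARP1), and the share of rises among all calls went from 26.7% to 54.1%.

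Genes of the same pathways outside the 41 are set beside them here. For genes outside the 41, here and below, single calls were not followed without each library or on other scales. Of 89 further tested repair genes, 26 fell and 3 rose in Treated cells, with a median of -0.30. Over all tested genes 18.2% fell and 6.28% rose there, with a median of -0.15. Of 21 further recombination genes 8 fell, among them BRIP1, the FANCJ helicase (-0.88, adjusted p = 0.00198), and RMI1, a partner of BLM (-0.81, adjusted p = 0.00294). Of 10 further Fanconi genes 4 fell, among them FAAP24, which brings the core complex to DNA (-0.75, adjusted p = 0.00708), and UBE2T, the conjugating enzyme that works with FANCL (-0.59, adjusted p = 0.00406), and 1 rose, FAAP20 (0.42, adjusted p = 0.0358).

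Of 14 further checkpoint genes 7 fell, led by MDC1, which binds marked chromatin beside breaks (-1.03, adjusted p = 0.00227), and CLSPN, the adaptor through which ATR activates CHEK1 (-0.83, adjusted p = 0.0127). Of 15 further excision genes 3 fell, beside 18.2% of all tested genes, led by the TFIIH subunit GTF2H4 (-0.88, adjusted p = 0.00359) and RAD23B, a partner of XPC (-0.64, adjusted p = 0.00208). Of 12 further genes of base excision and single-strand breaks 3 fell, led by the ligase LIG3 (-0.85, adjusted p = 0.00872), and 1 rose, the glycosylase NTHL1 (0.51, adjusted p = 0.0274). None of 6 further translesion and 5 further mismatch genes was called there.

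Of 6 further end-joining genes 1 fell and 1 rose on Day1, and 1 fell and 1 rose in Treated cells. Over all tested genes 6.28% fell and 14.4% rose on Day1, and 18.2% fell and 6.28% rose in Treated cells. PRKDC, the kinase that Ku recruits to broken ends, was -0.70 on Day1 (adjusted p = 0.00971), -0.71 on Day3 (adjusted p = 0.0172) and 0.45 in Treated cells (adjusted p = 0.0469), and it was 0.95 higher in Extracted than in Day3 cells (adjusted p = 0.00227). NHEJ1, which helps XRCC4 align the ends, went the opposite way, with 0.39 on Day1 (adjusted p = 0.0330), -0.39 in Treated cells (adjusted p = 0.0280) and -0.40 for Treated against Extracted (adjusted p = 0.0438). The DNA-binding partners of PRKDC, XRCC5 and XRCC6, had no call in any of the same comparisons.

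On Day1 the further repair genes went both ways, with 9 rises and 9 falls among 89 and a median of 0.071 (all genes: 14.4% higher, 6.28% lower, median 0.12). The falls included LIG1, the ligase of replication and excision (-0.90, adjusted p = 0.00186) and SLX4, the scaffold of nucleases that cut crosslinks (-0.67, adjusted p = 0.0215). The rises included WDR48, the partner of the enzyme that removes ubiquitin from FANCD2 (0.69, adjusted p = 0.00766), and POLK, a translesion polymerase (0.59, adjusted p = 0.0238). On Day3 2 of 89 fell, PRKDC among them, beside 4.64% of all tested genes. In Extracted cells limma called 0 (all genes 1.99%), with 12 at an unadjusted p under 0.05 (2728 of all 15167 tested genes).

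**Figure D4:**
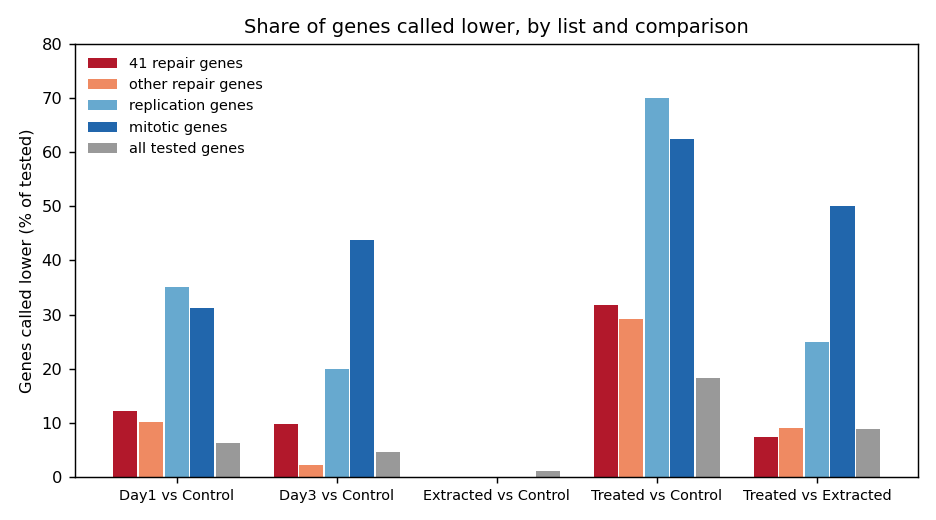
Share of tested genes called lower, in percent, for the 41 repair genes, the 89 other repair genes, 20 replication genes, 16 mitotic genes and all tested genes in 5 comparisons. The replication and mitotic bars stand above both repair bars in the Day1, Day3 and Treated comparisons with Control, and no bar but that of all tested genes is above 0 for Extracted cells.

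Genes of DNA replication and mitosis fell in the same groups and in larger shares. Of 20 replication genes 14 fell in Treated cells (all genes 18.2%), 7 on Day1 (6.28%), 4 on Day3 (4.64%) and 0 in Extracted cells (1.13%), with 0 rises against Control. Examples in Treated cells are MCM4, a subunit of the replicative helicase (-0.77, adjusted p = 0.00335), and CDC6, which loads it (-0.73, adjusted p = 0.00102). Of 16 mitotic genes 10 fell in Treated cells, 5 on Day1, 7 on Day3 and 0 in Extracted cells, with CCNA2, cyclin A2, at -0.75 (adjusted p = 0.00121) and BUB1, a spindle checkpoint kinase, at -0.73 (adjusted p = 0.00285) in Treated cells. In Extracted against Day3 cells 3 replication and 6 mitotic genes rose and 0 fell (all genes 6.3% higher, 10.8% lower). What part this has in the falls of the repair genes was not tested.

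Genes listed for the transcriptional response to DNA damage went both ways. Of the 16 listed, which share XPC and POLH with the 41, 4 rose on Day1 and 0 fell, and on Day3 1 rose and 1 fell. Over all tested genes 14.4% rose and 6.28% fell on Day1, and 5.18% rose and 4.64% fell on Day3. The shares in Treated cells were 6.28% and 18.2%, and in Extracted cells 0.857% and 1.13%. CDKN1A, the inhibitor that halts the cycle, was 2.00 on Day1 (adjusted p = 0.000236) and 1.05 on Day3 (adjusted p = 0.0103). In Treated cells 2 rose, the death receptor FAS (1.34, adjusted p = 0.00154) and the kinase PLK3 (0.72, adjusted p = 0.0433), and 2 fell, PPM1D, a phosphatase that ends the response (-0.55, adjusted p = 0.0182), and POLH. In Extracted cells 1 rose, FAS (0.94, adjusted p = 0.0442).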

How the data were processed

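RNA from 10 OVCAR-3 libraries, 2 biological replicates in each of 5 groups, was extracted with the RNeasy Mini Kit and made into libraries with standard Illumina protocols from 1 ug of total RNA, per the labels' protocols. The authors deposited TPM per gene, made with Trimmomatic, STAR and Cufflinks on GRCh38, per the submitters' processing notes. For versions, gene annotation and strand the sources used here give nothing. The TPM of 91 entries that share an Ensembl identifier were summed, leaving 58222 genes.

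Testing used limma 3.58.1 in R 4.3.3, for genes that reached 1 TPM in 2 or more libraries, on log2(TPM + 1), with a mean-variance trend, 1 coefficient for each of the 5 groups in 1 fit of all 10 libraries and 5 residual degrees of freedom. Tests were two-sided, p-values were adjusted by Benjamini and Hochberg over all 15167 tested genes in each of 6 comparisons, and fold changes of low genes are understated by the pseudocount of 1. The test was run on simulated data, drawn independently for each gene with its fitted spread, equal in all groups. These data held no shift of scale between libraries, so the check does not cover such shifts. The 41 genes, the pathway lists and the alternatives were chosen with earlier results of these data known. Values in every library are given for repair genes called in at least 1 comparison and for the 2 of each pathway with the highest mean TPM, and from the other lists up to 2 called genes with the largest rise and 2 with the largest fall per list and comparison were named. Some genes that this rule named are not reported here. Pathways follow the main role of each gene. Biotypes, positions and overlaps are from GENCODE 29, upstream sequences from RefSeq on GRCh38.p14, which held 38 of the 41 genes. Further repair genes also overlap exons of other genes, and only some of these overlaps are mentioned. Results were recomputed with a pseudocount of 0.1, with the filter dropped or set at 5 TPM, with 3 rescalings (median of ratios, mitochondrial genes removed, nuclear protein-coding genes alone), with a fit of the 2 groups compared, with the replicate number as a block, and without each library. Tables were handled with pandas 2.3.3 and NumPy 2.4.6 in Python 3.11.15, and plots drawn with Matplotlib 3.10.9. Reads, splicing and variants were not analysed here.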

Additional observations from a re-analysis of the deposited data

How the results depend on the processing

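Groups of 2 libraries limit precision, TPM give no depth, and leaving out a library assumes that the lone library of its group varies like the other groups. Of the 29 calls of repair genes, 4 held without each library of the groups compared (FANCA on Day1 and Day3, XRCC3 and PARP1 in Treated cells), and 13 held in every other alternative. The direction turned round past the threshold for 1 gene, XRCC5, which was not called with all libraries. XRCC5 in Treated cells without Treated replicate 1 was -0.29 against Control (adjusted p = 0.0222) and -0.28 against Extracted cells (adjusted p = 0.0318), and without Treated replicate 2 it was 0.30 and 0.31 (adjusted p = 0.0276 and 0.0513). Labels number the replicates 1 and 2 in each group without saying that a number marks a shared batch, and the replicate differences of the groups correlated at -0.022 to 0.087, so the samples were not treated as pairs. With the replicate number as a block, called repair genes numbered 6 on Day1, 4 on Day3, 0 in Extracted and 13 in Treated cells, 3 for Extracted against Day3 and 5 for Treated against Extracted.

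Most counts that changed little under an alternative are left out here and in the next paragraph. Called repair genes numbered 5 on Day1, 4 on Day3, 0 in Extracted and 13 in Treated cells, 3 for Extracted against Day3 and 4 for Treated against Extracted. Without a filter they numbered 3 on Day1, 1 on Day3, 8 in Treated cells and 0 for Treated against Extracted. With the median of ratios they numbered 11, 7 and, for Extracted against Day3, 5. With mitochondrial genes removed they numbered 11 on Day1, 7 on Day3, 18 in Treated cells (all lower, beside 26.8% of all tested genes) and 2 for Extracted against Day3. With nuclear protein-coding genes alone they numbered 15, 9, 3 in Extracted cells and 5 for Extracted against Day3. With the 2 groups fitted alone they numbered 7 on Day3, 1 in Extracted cells and 0 for Treated against Extracted. Leaving out 1 library gave 1 to 10 on Day1, 1 to 5 on Day3, 0 to 1 in Extracted and 2 to 22 in Treated cells, 0 to 3 for Extracted against Day3 and 0 to 16 for Treated against Extracted.

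Over all tested genes the calls numbered 3132, 1489, 302, 3715, 2599 and 1836 in the same order. Without a filter they numbered 832 on Day3, 99 in Extracted cells and 1018 for Treated against Extracted. In Extracted cells they numbered 639 with the median of ratios, 572 with mitochondrial genes removed and 1032 with nuclear protein-coding genes alone. With the 2 groups fitted alone they numbered 2983 on Day3, 1279 in Extracted and 2245 in Treated cells, 4478 for Extracted against Day3 and 407 for Treated against Extracted. Leaving out 1 library gave 985 to 4132, 216 to 2284, 2 to 673, 1332 to 4173, 854 to 3233 and 167 to 3155 calls in the same order. The causes of these shifts were not tested.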
